A study of Mus musculus with 8 samples.

Results

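Histone genes were followed in CD11c-positive cells from the spleens of lupus-prone and control mice. The genes were taken from the deposited count table by name: a gene belonged if its symbol began with Hist1h to Hist4h, H2af, H3f3 or H1f. This gave 14 of the 13786 genes in the table. The table mixes older and newer symbols for histone genes, so each of the 14 was classed by the symbol of the same identifier in GENCODE M21. By that rule 10 genes are clustered histone genes, all on chromosome 13: the linker histone genes H1f1, H1f2, H1f3, H1f4 and H1f5 (older symbols Hist1h1a, Hist1h1c, Hist1h1d, Hist1h1e and Hist1h1b), the H2A genes Hist1h2ao and Hist1h2ap, the H2B gene Hist1h2bp, and the H4 genes Hist1h4m and Hist1h4n. The other 4 are variant histone genes outside the clusters: the linker histone genes H1f0 and H1f10 (older symbol H1fx) and the H3.3 genes H3f3a and H3f3b.

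RNA was sequenced from female mice of both strains, 4 of C57BL/6 and 4 of B6.SLE123, untreated and at 7 weeks of age. B6.SLE123 (B6.NZMSLE1/SLE2/SLE3) is a C57BL/6 strain that carries the Sle1, Sle2 and Sle3 lupus susceptibility regions of the lupus-prone NZM background, and both strains came from The Jackson Laboratory. The study chose this age as one before overt disease, and the comparison asks how the lupus-prone strain differs before disease. The labels call the cells dendritic cells, but CD11c, the product of Itgax, is also carried by some macrophages and B cells, so the preparation can hold several cell types. The labels do not say how the mice were housed or processed together. The p-values set the strain difference against the spread between these mice. Housing or processing that went by strain could not be told apart from strain.

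Histones package DNA into nucleosomes: H2A, H2B, H3 and H4 form the core, and linker histone H1 binds where DNA enters and leaves it. Clustered histone genes are mostly replication-dependent. They are transcribed in S phase, lack introns, and yield mRNAs that end in a conserved stem-loop bound by the stem-loop binding protein in place of a poly(A) tail. Some of them also give polyadenylated mRNA in cells that have stopped dividing. Variant, or replacement, histone genes such as H3f3a and H3f3b are expressed throughout the cell cycle, give polyadenylated mRNA, and supply histones for nucleosome exchange outside S phase. The libraries were made with a kit for mRNA, so a transcript without a poly(A) tail is expected to be under-represented and the counts of clustered genes do not measure all of their mRNA.

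The stem-loop is the sequence known for marking the end of replication-dependent histone mRNA. The annotated GENCODE M21 transcripts were searched on the sense strand for the 16 bases of the histone stem-loop consensus, with the third, the fourth and the thirteenth base left free. This pattern was present in 30 of 13739 genes of the table with a searched transcript (0.218%), in 8 of the 10 clustered genes and in 0 of the 4 variant genes. The clustered genes without it were H1f1 and H1f5. It was present in 21 of the 41 other clustered histone genes of the table (51.2%), so its absence from an annotated transcript does not mark a variant gene. In the following sequences, read 5′ to 3′, the 16 bases of the stem-loop are in capitals with up to 5 flanking bases, and they are shown because the H4 genes have another stem than the linker, H2A and H2B genes.
H1f2: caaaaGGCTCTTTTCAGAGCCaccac
H1f3: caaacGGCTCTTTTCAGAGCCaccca
H1f4: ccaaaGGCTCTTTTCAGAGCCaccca
Hist1h2ao: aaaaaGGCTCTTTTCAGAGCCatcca
Hist1h2bp: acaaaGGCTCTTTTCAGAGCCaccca
Hist1h4m: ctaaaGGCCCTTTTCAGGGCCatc
Hist1h4n: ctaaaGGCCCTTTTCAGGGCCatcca

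What follows the stem-loop also differed among the clustered genes. The annotated transcript goes on for 840 bases in H1f2, 4884 bases in H1f3 and 1153 bases in H1f4. It ends 3 to 38 bases after the stem-loop in Hist1h2ao, Hist1h2ap, Hist1h2bp, Hist1h4m and Hist1h4n. These annotations say only that transcripts reaching past the stem-loop have been recorded. Whether such transcripts carry a poly(A) tail was not examined.

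Promoters were taken from RefSeq (GRCm38.p6), which matched all 14 genes, as the 250 bases before the annotated start. GENCODE M21 places some of these bases in exons of the same gene. These were 250 bases in H1f3, 214 in H3f3b, 155 in H1f10, 99 in H3f3a and 32 or fewer in the other genes. They were searched on both strands for 3 motifs. These were CCAAT, then TATAAA, and then AAACACA, which is the core of an element known from linker histone promoters. CCAAT was present in 8 of 10 clustered and 2 of 4 variant genes, against 33.8% of 32851 promoters. TATAAA was present in 7 of 10 clustered and 1 of 4 variant genes, against 12.4% of promoters. AAACACA was present in 4 clustered genes (H1f2, H1f3, H1f4 and H1f5) and in 1 variant gene (H3f3a), against 6.25% of promoters. The promoters of H1f2, H1f4 and H1f5 are shown because these linker genes share matches to both AAACACA and the CCAAT motif while their expression differed, and that of Hist1h4m because this gene had the largest fold change. Matches are in capitals.
H1f2, chr13:23738557-23738806, plus strand: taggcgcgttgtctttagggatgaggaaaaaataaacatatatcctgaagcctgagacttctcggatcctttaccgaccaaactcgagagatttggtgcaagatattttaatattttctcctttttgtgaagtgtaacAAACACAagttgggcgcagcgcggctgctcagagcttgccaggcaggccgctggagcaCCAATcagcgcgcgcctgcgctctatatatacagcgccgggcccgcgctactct
H1f4, chr13:23622559-23622808, minus strand: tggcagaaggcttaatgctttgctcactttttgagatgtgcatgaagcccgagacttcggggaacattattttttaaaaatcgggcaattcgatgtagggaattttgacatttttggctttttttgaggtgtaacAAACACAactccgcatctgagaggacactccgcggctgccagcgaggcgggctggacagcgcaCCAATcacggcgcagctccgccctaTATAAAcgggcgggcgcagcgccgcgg
H1f5, chr13:21780626-21780875, minus strand: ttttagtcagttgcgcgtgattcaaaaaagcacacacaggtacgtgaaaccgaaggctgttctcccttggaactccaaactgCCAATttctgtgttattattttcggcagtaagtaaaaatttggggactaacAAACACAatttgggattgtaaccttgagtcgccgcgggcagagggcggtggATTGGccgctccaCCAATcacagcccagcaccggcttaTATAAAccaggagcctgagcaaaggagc
Hist1h4m, chr13:21811496-21811745, plus strand: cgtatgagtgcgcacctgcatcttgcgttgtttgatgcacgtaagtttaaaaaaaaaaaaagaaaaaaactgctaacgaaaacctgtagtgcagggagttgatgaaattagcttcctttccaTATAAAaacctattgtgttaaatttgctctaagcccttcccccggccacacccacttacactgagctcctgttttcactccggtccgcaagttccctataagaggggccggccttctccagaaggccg

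Counts summed to between 25563070 and 37367094 per mouse, and the 14 histone genes took between 0.113% and 0.126% of them. CPM below are the counts of a gene per 1000000 counts of the library, with library sizes scaled by TMM, and log2 fold changes are B6.SLE123 over C57BL/6, from the quasi-likelihood test of edgeR, adjusted over all 13786 genes by the Benjamini-Hochberg method. An adjusted p below 0.05 was called. The strains differed widely: 53.4% of all genes were called, 26.7% higher and 26.6% lower in B6.SLE123 mice, and 48.9% of genes had CPM ranges that did not overlap between the strains. Against this background 7 of the 14 histone genes were called, 2 higher and 5 lower, and the ranges of 8 did not overlap. These shares are close to those of the table as a whole. Among all genes 11.1% were called and changed more than 2-fold, as were 2 histone genes, H1f2 and Hist1h4m.

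**Figure D1:**
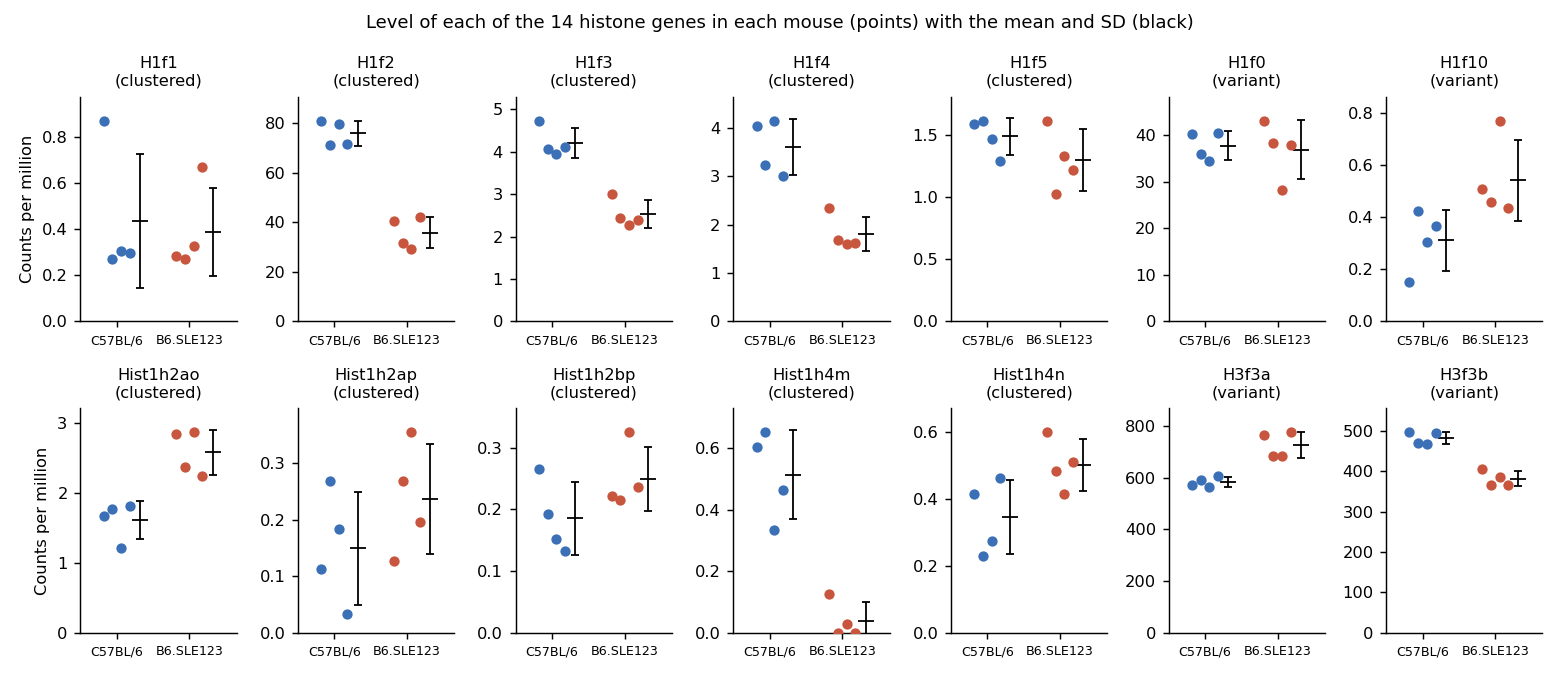
CPM (y axis, linear from 0) of each of the 14 histone genes in 4 C57BL/6 (blue) and 4 B6.SLE123 (red) mice; each point is a mouse, and the black mark and bar are the mean and SD of the 4. H1f2, H1f3, H1f4, Hist1h4m and H3f3b were lower in every B6.SLE123 mouse, and Hist1h2ao, H3f3a and H1f10 were higher in every one.

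Of the linker histone genes of the chromosome 13 cluster, H1f2, H1f3 and H1f4 fell in B6.SLE123 mice, and H1f1 and H1f5 did not pass the test. H1f2 (chr13:23738808-23740367, plus strand, 1 exon) was the most abundant clustered gene. It was at 80.9, 71.3, 79.5 and 71.6 CPM in the C57BL/6 mice and at 40.7, 31.5, 29.2 and 42.0 CPM in the B6.SLE123 mice. The highest B6.SLE123 mouse lay well under the lowest C57BL/6 mouse. The means were 75.8 ± 5.11 and 35.8 ± 6.41 CPM (SD, n = 4 each), and the log2 fold change was -1.09 (SE 0.11, adjusted p = 1.26e-05). H1f2 in B6.SLE123 mice was thus at 47.1% of its C57BL/6 level.

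H1f4 (chr13:23620629-23622558, minus strand) had 4.05, 3.22, 4.15 and 3.01 CPM in C57BL/6 mice and 2.34, 1.69, 1.60 and 1.61 CPM in B6.SLE123 mice. The strains did not overlap, and mouse 1 stood above the other B6.SLE123 mice. Its log2 fold change was -0.99 (SE 0.18, adjusted p = 0.000693). The annotated exon of H1f4 shares 496 bases with the H2B gene H2bc6 on the same strand, so reads there cannot be assigned by position. Of its 50-base windows 32% occur in other annotated genes, a share that includes the overlap with H2bc6. H1f3 and the far more abundant H1f2 are also among these genes, and the share of each was not separated. H2bc6 itself had a log2 fold change of -0.43 (SE 0.19, adjusted p = 0.0806).

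H1f3 (chr13:23553262-23560686, plus strand) had 4.73, 4.07, 3.93 and 4.10 CPM in C57BL/6 mice and 3.01, 2.45, 2.28 and 2.40 CPM in B6.SLE123 mice. The strains again did not overlap. Its log2 fold change was -0.73 (SE 0.13, adjusted p = 0.000763), a smaller fall than that of H1f2.

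The remaining clustered linker genes had few counts. H1f5 (chr13:21779883-21780625, minus strand) had 42, 42, 48 and 39 counts in C57BL/6 mice and 51, 38, 45 and 31 in B6.SLE123 mice, and the strains overlapped. Its log2 fold change was -0.20 (SE 0.19, adjusted p = 0.399). H1f1 (chr13:23763666-23764406, plus strand) had 23, 7, 10 and 9 counts in C57BL/6 mice and 9, 10, 11 and 17 in B6.SLE123 mice. C57BL/6 mouse 1 stood far above its group, and without that mouse the log2 fold change turned from -0.19 (SE 0.46, adjusted p = 0.748) to 0.36 (adjusted p = 0.494). No difference was detected for either gene. The SE of H1f5 was near that of H1f4, which was called, whereas that of H1f1 was wide.

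The variant linker genes did not pass the test. H1f0, which encodes the linker histone that accumulates in differentiated and resting cells, is a gene of 1 exon on chromosome 15 (chr15:79028450-79030504, plus strand). It had 40.2, 35.9, 34.4 and 40.4 CPM in C57BL/6 mice and 43.0, 38.3, 28.1 and 37.8 CPM in B6.SLE123 mice. B6.SLE123 mouse 3 was the lowest of all and mouse 1 of that strain the highest, so the strains overlapped completely. The log2 fold change was -0.03 (SE 0.11, adjusted p = 0.815), and without B6.SLE123 mouse 3 it was 0.08 (adjusted p = 0.425). H1f10 (chr6:87980421-87981637, minus strand) had 4, 11, 10 and 11 counts in C57BL/6 mice and 16, 17, 26 and 11 counts in B6.SLE123 mice. Its CPM ranges did not overlap, but the log2 fold change of 0.80 (SE 0.34) did not pass after adjustment (adjusted p = 0.0695).

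The make-up of linker histone counts therefore differed between the strains, in libraries where transcripts without a poly(A) tail are expected to be under-represented. H1f2 took 61.1%, 61.0%, 64.1% and 59.1% of the counts of the 7 linker genes in C57BL/6 mice and 44.5%, 41.6%, 45.9% and 48.7% in B6.SLE123 mice. H1f0 took 27.7% to 33.4% in C57BL/6 mice and 43.9% to 50.6% in B6.SLE123 mice. Neither share overlapped between the strains. Counts of H1f0 were 0.432 to 0.564 times those of H1f2 in C57BL/6 mice and 0.902 to 1.22 times in B6.SLE123 mice. The sum over the 7 linker genes was 124 ± 6.65 CPM in C57BL/6 mice and 79.2 ± 12.3 CPM in B6.SLE123 mice, and every B6.SLE123 mouse was lower. These sums rest on members whose own tests are given above, and no separate test was made of them.

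The clustered core histone genes had few reads, between 71 and 135 counts per mouse over the 5 genes together, and moved in both directions. Hist1h4m fell, Hist1h2ao rose, and Hist1h2ap, Hist1h2bp and Hist1h4n did not pass the test. Hist1h4m (chr13:21811746-21812147, plus strand), a gene for histone H4, had 16, 17, 11 and 14 counts in C57BL/6 mice. It had 4, 0, 1 and 0 counts in B6.SLE123 mice. No B6.SLE123 mouse reached the lowest C57BL/6 mouse, and the strain totals were 58 and 5 counts. The log2 fold change was -3.57 (SE 0.64, adjusted p = 0.000767), the largest of the 14, on the smallest counts of the 7 that were called.

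Hist1h4m must be read with Hist1h4n (chr13:21831767-21832196, minus strand), its near-identical neighbour. The coding sequences of both genes were identical over all 309 bases without the stop codon. The annotated transcripts, aligned at the start codon, differed at 1 of 402 bases, G36A, counted from 1 at the 5′ end of the Hist1h4m transcript with the Hist1h4m base first. The promoters share a run of 249 of 250 bases. Of the 50-base windows of Hist1h4m, 89.8% occur in other annotated genes, 11 in all, with Hist1h4n and other H4 genes among them. Both coding sequences begin with the same 60 bases, shown here because a read lying wholly within them matches both genes.
Hist1h4m and Hist1h4n: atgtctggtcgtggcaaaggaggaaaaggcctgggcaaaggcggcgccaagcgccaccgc

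Hist1h4n had 11, 6, 9 and 14 counts in C57BL/6 mice and 19, 18, 14 and 13 counts in B6.SLE123 mice, with a log2 fold change of 0.53 (SE 0.30, adjusted p = 0.157). The sign of its fold change was opposite to that of Hist1h4m, but the strains overlapped. Together the pair had 27, 23, 20 and 28 counts in C57BL/6 mice and 23, 18, 15 and 13 in B6.SLE123 mice. As CPM the pair ranged from 0.610 to 1.02 in C57BL/6 mice and from 0.444 to 0.728 in B6.SLE123 mice, so the strains overlapped. Hist1h4m took at most 73.9% and at least 50% of the pair's counts in C57BL/6 mice and 0% to 17.4% in B6.SLE123 mice. The strains thus differed in the split between the copies more clearly than in their sum, and the sources used here do not say how reads that match both were counted.

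**Figure D2:**
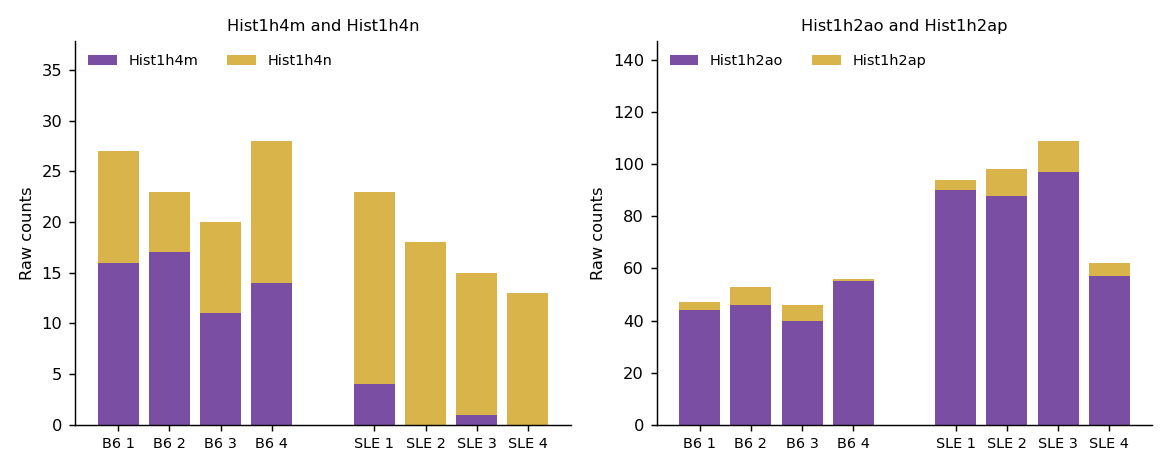
Raw counts (y axis) of the near-identical gene pairs Hist1h4m and Hist1h4n (left) and Hist1h2ao and Hist1h2ap (right), stacked for each of the 4 C57BL/6 mice (B6 1 to B6 4) and the 4 B6.SLE123 mice (SLE 1 to SLE 4). The H4 pair's totals lie between 13 and 28 with Hist1h4m at 0 to 4 counts in B6.SLE123 mice, and the H2A pair is made mostly of Hist1h2ao in both strains.

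The H2A genes form a similar pair. Hist1h2ao (chr13:21810465-21810944, plus strand) had 44, 46, 40 and 55 counts in C57BL/6 mice and 90, 88, 97 and 57 counts in B6.SLE123 mice. As CPM it lay between 1.22 and 1.82 in C57BL/6 mice and between 2.24 and 2.87 in B6.SLE123 mice, without overlap. The log2 fold change was 0.68 (SE 0.17, adjusted p = 0.00638). Hist1h2ap (chr13:21833026-21833507, minus strand) had between 1 and 12 counts in any mouse, and its log2 fold change was 0.69 (SE 0.53, adjusted p = 0.292). The transcripts were identical over 452 aligned bases. Of the 50-base windows of Hist1h2ao, 93.5% occur in other annotated genes, 48 in all. Besides Hist1h2ap these include other clustered H2A genes and the far more abundant variant genes H2ax and H2aj. H2ax averaged 65.9 CPM in C57BL/6 mice and 108 CPM in B6.SLE123 mice, and H2aj 42.8 and 33.1 CPM. The share of each in the counts was not separated.
Hist1h2ao and Hist1h2ap: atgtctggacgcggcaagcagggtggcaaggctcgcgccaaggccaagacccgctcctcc

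Unlike the H4 pair, the H2A pair differed as a sum. It had 1.40 to 2.03 CPM in C57BL/6 mice and 2.44 to 3.23 CPM in B6.SLE123 mice, without overlap. Hist1h2bp (chr13:21787461-21789213, plus strand), an H2B gene, had between 4 and 11 counts in any mouse and a log2 fold change of 0.44 (SE 0.35, adjusted p = 0.331). No difference was detected in this gene at this depth.

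H3f3a and H3f3b, the genes for histone H3.3, were by far the most abundant of the 14, and they changed in opposite directions. H3.3 is the replacement form of H3 that is laid down outside replication. H3f3a (chr1:180800832-180813943, minus strand) rose from 572, 591, 563 and 606 CPM in C57BL/6 mice to 764, 685, 683 and 776 CPM in B6.SLE123 mice. All B6.SLE123 mice were above all C57BL/6 mice. Its log2 fold change was 0.32 (SE 0.05, adjusted p = 0.000501), a level 1.25 times as high. H3f3b (chr11:116021912-116027962, minus strand) fell from 498, 470, 469 and 495 CPM in C57BL/6 mice to 407, 368, 387 and 366 CPM in B6.SLE123 mice. Here all B6.SLE123 mice were below all C57BL/6 mice. Its log2 fold change was -0.34 (SE 0.05, adjusted p = 0.000121), a level at 79.1% of that in C57BL/6 mice.

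Both genes encode the same protein from diverged coding sequences. The coding sequences differed at 95 of 408 bases without the stop codon. Outside this pair, 27.1% of the 50-base windows of H3f3a occur in 193 other annotated genes, and 6.86% of those of H3f3b in 3. The first 60 bases are shown with the 13 that differ in capitals.
H3f3a: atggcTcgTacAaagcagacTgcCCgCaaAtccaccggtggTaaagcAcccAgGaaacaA
H3f3b: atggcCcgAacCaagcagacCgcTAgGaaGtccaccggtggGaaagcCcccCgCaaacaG

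H3f3a took 53.5%, 55.7%, 54.6% and 55.0% of the counts of both genes in C57BL/6 mice and 65.3%, 65.1%, 63.8% and 67.9% in B6.SLE123 mice. The sum of both was 1066 ± 28 CPM in C57BL/6 mice and 1109 ± 56.9 CPM in B6.SLE123 mice, and the strains overlapped. The H3f3a share, by contrast, was higher in every B6.SLE123 mouse. Annotated exons on the opposite strand overlap H3f3a by 638 bases (Gm17275) and 160 bases (H3f3aos), and whether counting used the strand is not given in the sources used here. Chromosome 1 is also the chromosome of Sle1, whose bounds are not given in the sources used here. Within 2 Mb of H3f3a, 17 of 31 other genes were called (54.8%), 12 higher and 5 lower, near the 53.4% of the whole table.

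**Figure D3:**
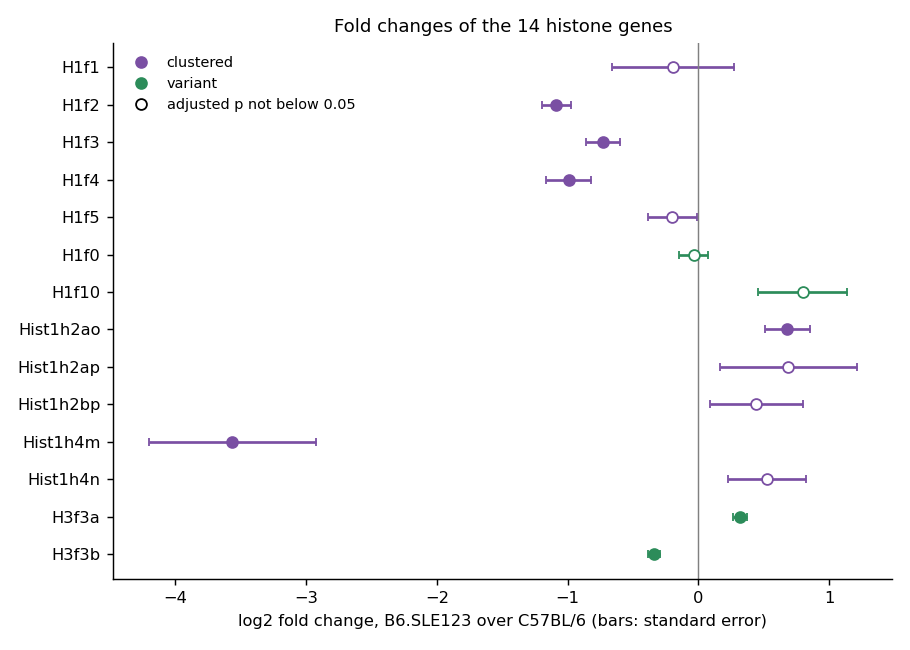
Log2 fold change, B6.SLE123 over C57BL/6 (x axis), of the 14 histone genes, with bars for the standard error; purple marks clustered and green variant genes, and filled points have an adjusted p below 0.05. Hist1h4m stands apart at -3.57, H1f2, H1f3 and H1f4 lie between -1.09 and -0.73, and H3f3a and H3f3b lie on opposite sides of 0.

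Compared as classes, 5 of 10 clustered genes were called, 1 higher and 4 lower, and 2 of 4 variant genes, 1 in each direction. Both shares are near the 53.4% of all genes. The median log2 fold change was -0.20 for the clustered and 0.14 for the variant genes, against -0.002 for all genes tested. Neither median held its value: without C57BL/6 mouse 1 the clustered median was 0.10, and with at least 10 counts in every mouse the medians were -0.74 (5 genes) and -0.05 (3 genes). The clustered genes ranged from -3.57 to 0.69 and the variant genes from -0.34 to 0.80, so the classes overlapped. Among the clustered genes, the 5 linker genes had a median of -0.73 and the 5 core genes a median of 0.53. If class were instead read from the symbol in the table, 2 of 5 genes named Hist and 5 of 9 others would be called; that grouping was added after the data were seen.

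Summed over genes, the clustered counts were lower in B6.SLE123 mice and the variant counts overlapped between the strains. The 10 clustered genes summed to 95.2, 83.6, 91.5 and 83.2 CPM in C57BL/6 mice and to 51.8, 40.2, 38.8 and 51.1 CPM in B6.SLE123 mice. The strains did not overlap, and the B6.SLE123 mean was 51.4% of the C57BL/6 mean. The 5 core genes within this sum went the other way. They summed to 2.17 to 3.11 CPM in C57BL/6 mice and 3.19 to 3.99 CPM in B6.SLE123 mice, without overlap. Hist1h2ao was the most abundant of them. The 4 variant genes summed to 1110, 1097, 1067 and 1141 CPM in C57BL/6 mice and to 1215, 1092, 1099 and 1181 CPM in B6.SLE123 mice, with overlap. The log2 ratio of clustered to variant counts was -3.64 ± 0.12 in C57BL/6 mice and -4.67 ± 0.15 in B6.SLE123 mice (SD, n = 4 each). The ratio was lower in every B6.SLE123 mouse.

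Each sum is dominated by its most abundant gene. The mean log2 difference between the strains in the clustered sum was -0.97 with H1f2 and -0.38 without it. In the variant sum it was 0.05 with H3f3a and -0.31 without it. The difference in the log2 ratio was -1.02, and it was -0.07 without H1f2 and H3f3a, where both sums fell. The lower ratio thus came with the fall of the clustered sum, most of which was H1f2.

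**Figure D4:**
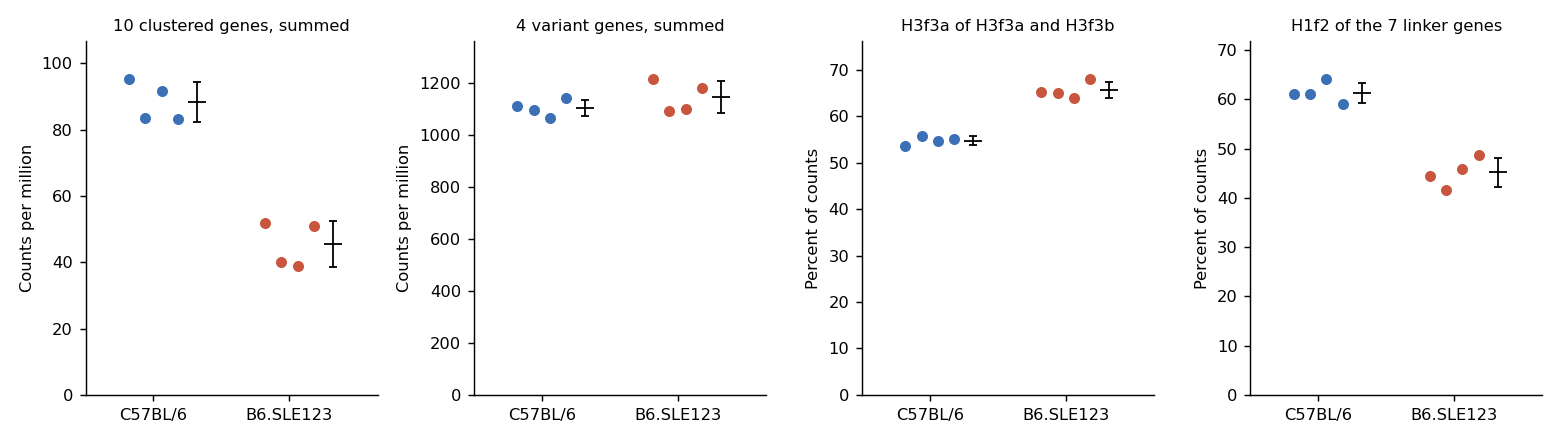
Summed CPM of the 10 clustered and of the 4 variant histone genes, the percent of H3.3 counts from H3f3a, and the percent of linker histone counts from H1f2, in each of 4 C57BL/6 (blue) and 4 B6.SLE123 (red) mice, with the mean and SD in black; all y axes start at 0. The variant sum overlaps between the strains, whereas the clustered sum, the H3f3a share (53.5% to 55.7% against 63.8% to 67.9%) and the H1f2 share do not.

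To compare levels between genes, CPM were divided by the length of the annotated exons in kilobases. H3f3a and H3f3b led in both strains. In C57BL/6 mice H3f3a, at 161 to 173 CPM per kilobase, overlapped H3f3b, at 158 to 167. In B6.SLE123 mice they were apart, at 195 to 222 and 123 to 137. H1f2 followed, at 45.7 to 51.9 in C57BL/6 mice and 18.7 to 26.9 in B6.SLE123 mice. H1f0 came next, at 16.7 to 19.7 and 13.7 to 20.9, so that H1f2 and H1f0 were apart in C57BL/6 mice and overlapped in B6.SLE123 mice. All other members had a mean below 6 CPM per kilobase in both strains.

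The same name pattern applied to GENCODE M21 symbols finds 61 histone genes in the table, 47 of which are listed under newer symbols and stand outside the 14. Of the 41 clustered genes among them, 14 were called (34.1%), 2 higher and 12 lower, and their median log2 fold change was -0.43. This share is below the 53.4% of all genes, of which 26.6% were called lower. The largest falls among genes averaging 20 or more counts in their higher strain were in the H4 gene H4f16 (-2.30, SE 0.33, adjusted p = 0.000173), the H2B gene H2bc8 (-1.47, SE 0.19, adjusted p = 9.68e-05) and the H2A gene H2ac6 (-1.13, SE 0.17, adjusted p = 0.000244). H2bc4 (Hist1h2bc), which like H1f2 is known for polyadenylated mRNA, fell by 0.70 on the log2 scale (SE 0.13, adjusted p = 0.00118), while H2bc21 (Hist2h2be) had -0.07 (SE 0.11, adjusted p = 0.597).

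The 6 variant genes under newer symbols were all called, against 53.4% of all genes, 5 higher and 1 lower, with a median of 0.40. H2ax, the H2A variant phosphorylated at DNA breaks, rose by a log2 fold change of 0.71 (SE 0.07, adjusted p = 1.75e-05), and H2az1, an H2A.Z gene, by 0.53 (SE 0.05, adjusted p = 4.38e-06). H2az2 (0.27), Macroh2a1 (0.25) and Macroh2a2 (0.85) also rose, with adjusted p = 0.00226, 0.000477 and 0.0137. H2aj was the gene that fell, with -0.37 (SE 0.07, adjusted p = 0.000759). Together with the 4 variant genes above, all 10 summed to 1803 to 1918 CPM in C57BL/6 mice and 2045 to 2244 CPM in B6.SLE123 mice. This sum did not overlap between the strains, unlike that of the 4. All 51 clustered genes summed to 159 to 180 CPM in C57BL/6 mice and 87.4 to 108 CPM in B6.SLE123 mice. Cenpa, the centromeric H3 variant, lies outside the name pattern and rose by 0.37 (SE 0.10, adjusted p = 0.00828).

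Over all 51 clustered genes of the table, the length annotated after the stem-loop went with raw counts and direction. The cutoff of 100 bases was chosen after the data were seen. The 15 genes with at least 100 bases after the stem-loop had a median of 70.5 counts per mouse and a median log2 fold change of -0.73, with 9 called lower and 0 higher, against 26.6% lower and 26.7% higher among all genes. H1f2, H1f3 and H1f4 are among these 15. The 14 genes with fewer bases after it had a median of 8.88 counts and a median log2 fold change of 0.08, with 2 called in each direction. The 22 genes without the stem-loop in the annotated transcript had a median of 11.8 counts and a median log2 fold change of -0.22, with 1 called higher and 5 lower. These are descriptions. A longer annotated transcript can collect more reads, the counts here were not divided by length, and the groups also differ in depth.

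Genes that make, process and deposit histones mostly moved the other way from H1f2. Of 15 genes for histone mRNA processing and its control, 9 rose and 0 fell, with a median log2 fold change of 0.25. The share called was 60%, near the 53.4% of all genes, of which 26.7% rose and 26.6% fell. Slbp, the stem-loop binding protein gene, rose from 48.4 ± 0.628 to 69.7 ± 2.62 CPM (log2 fold change 0.53, SE 0.04, adjusted p = 2.20e-06). Npat, the activator of clustered histone gene transcription, rose by 0.40 (SE 0.07, adjusted p = 0.00048). Eri1, an exonuclease that trims histone mRNA, rose by 0.56 (SE 0.04, adjusted p = 1.47e-06). The largest changes were in Zfp473 (2.16, SE 0.21, adjusted p = 9.18e-06), a histone pre-mRNA processing factor with 1.27 ± 0.445 and 5.74 ± 0.284 CPM, and in the S phase regulator E2f1 (0.68, SE 0.05, adjusted p = 1.58e-06).

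Of 28 histone chaperone and deposition genes, 20 rose and 2 fell, with a median of 0.34. The share called was 78.6%, against 53.4% of all genes. The genes of replication-coupled deposition rose most: Chaf1a by 0.95 (SE 0.11), Chaf1b by 0.94 (SE 0.11) and Asf1b by 0.91 (SE 0.08), with adjusted p = 2.91e-05, 3.20e-05 and 3.96e-06. The genes of H3.3 deposition differed from each other. Hira had a log2 fold change of 0.03 (SE 0.07, adjusted p = 0.732), Daxx fell by 0.14 on the log2 scale (SE 0.04, adjusted p = 0.00974), and Atrx rose by 0.21 (SE 0.05, adjusted p = 0.0082). Of 21 S phase and proliferation genes, 20 rose and 0 fell, with a median of 0.96, a share called of 95.2% against the same 53.4%. Mki67 rose by 1.28 (SE 0.08, adjusted p = 6.78e-07), Uhrf1 by 1.22 (SE 0.08, adjusted p = 9.73e-07) and Pcna by 0.53 (SE 0.04, adjusted p = 3.09e-06).

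**Figure D5:**
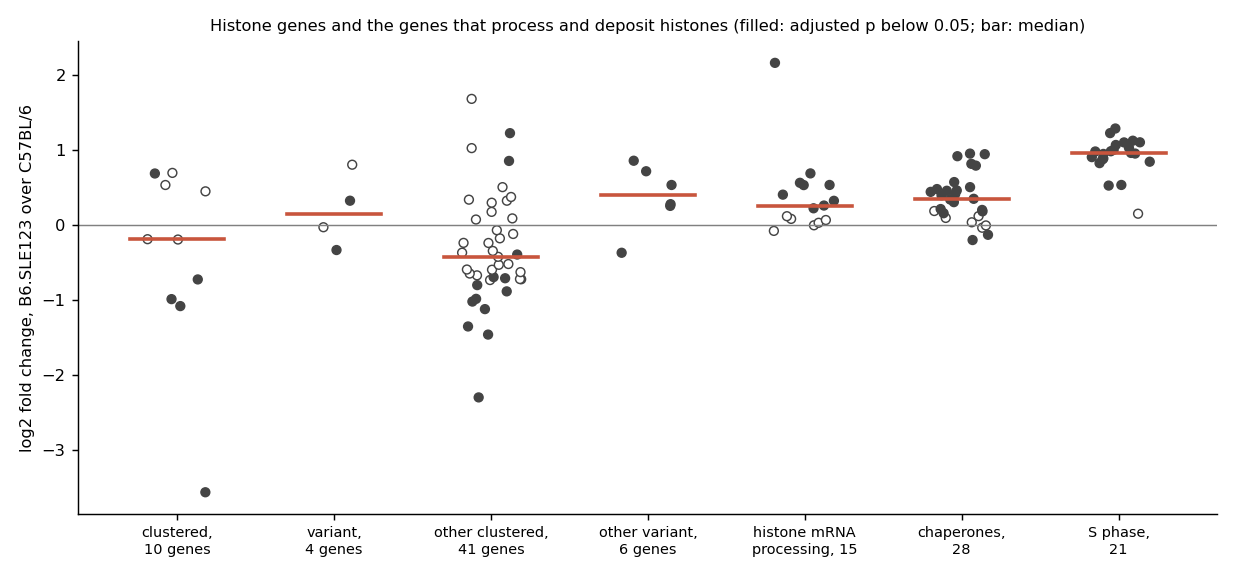
Log2 fold change, B6.SLE123 over C57BL/6 (y axis), of each gene (points; filled where the adjusted p is below 0.05) in 7 groups: the 10 clustered and 4 variant histone genes, the 41 clustered and 6 variant histone genes under newer symbols, 15 histone mRNA processing genes, 28 histone chaperone genes and 21 S phase genes; red bars are medians. The medians of both clustered groups (-0.20 and -0.43) lie below 0 and those of the other groups above it, up to 0.96 for S phase genes; without C57BL/6 mouse 1 the median of the 10 clustered genes was 0.10, and with at least 10 counts in every mouse that of 3 variant genes was -0.05.

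Markers of several cell types moved with strain beside the histone genes. In these bulk samples fewer cells of a type and less RNA per cell cannot be told apart. The defining genes of the label were present: Itgax had 1219 to 1398 CPM in C57BL/6 mice and 1437 to 1652 CPM in B6.SLE123 mice. All 12 red pulp macrophage genes fell, and their sum was 13153 to 16970 CPM in C57BL/6 mice and 1984 to 3792 CPM in B6.SLE123 mice. The sum of 8 type 1 conventional dendritic cell genes was 3154 to 3591 and 4796 to 6148 CPM, with 6 genes higher and 1 lower, and that of 8 type 2 genes was 2204 to 2403 and 1243 to 1521 CPM, with 4 lower. The S phase genes summed to 1189 to 1321 CPM and 2133 to 2702 CPM. Their part in the histone differences was not tested.

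Of the other marker lists, the B cell and erythroid sums did not overlap between the strains, and the remaining sums did. Of 10 B cell genes 7 fell and 1 rose, and their sum was 916 to 1025 CPM in C57BL/6 mice and 722 to 854 CPM in B6.SLE123 mice. Of 9 erythroid genes 6 fell, but the sum was 133 to 165 and 223 to 267 CPM because Tfrc, the transferrin receptor gene that dividing cells also express, rose by 1.09 (SE 0.08, adjusted p = 1.40e-06). Rhag and Slc4a1 of the erythroid list were at 0 in some mice. Of 9 T cell genes 3 fell and 0 rose (median -0.37), and the sum, mostly Cd4, was 284 to 323 and 279 to 382 CPM. Of 8 plasma cell genes Jchain (1.10), Derl3 (1.10) and Mzb1 (1.06) rose and Prdm1 (-1.31) and Xbp1 (-0.39) fell (median 0.63), and the sum, mostly Xbp1 and Irf4, was 296 to 314 and 261 to 335 CPM. Of 8 plasmacytoid dendritic cell genes 2 rose and 3 fell, and of 6 neutrophil genes 2 rose and 1 fell. The plasmacytoid dendritic cell sum was 321 to 341 and 278 to 330 CPM, and the neutrophil sum 7.23 to 9.67 and 3.43 to 11.3 CPM. The part of these cells in the histone values was not tested.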

How the data were processed

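RNA of CD11c-positive splenocytes from 8 mice was sequenced with a stranded mRNA kit. After quality control (FastQC) and trimming (cutadapt) the authors used STAR for alignment against mm10 and featureCounts for counting; versions, the strand setting and the treatment of multiply matching reads are not given in the sources used here. The deposited counts are raw counts per gene and mouse for 13786 protein-coding genes in which the larger strain median was at least 5. Histone mRNA without a poly(A) tail is poorly captured by such a kit. The authors' DESeq2 comparison of the strains in the table was not used. Coordinates are those of the table, the same as in GENCODE M21 for all 14 genes. The strain came from the sample names, since the genotype labels number it upwards from mouse to mouse.

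TMM scaling and the quasi-likelihood F test of edgeR 4.0.16 under R 4.3.3 were applied to all 8 mice with strain as the only term and Benjamini-Hochberg adjustment. SEs were derived from the fold change and the F statistic. The script was tested on simulated data. Alternatives were relative log expression factors, unscaled totals, at least 10 counts in every mouse, DESeq2 1.42.0, a replicate block, voom in limma 3.58.1, a more than 2-fold change, and each mouse left out. Named were every member, every variant histone gene, the largest falls and rises of the other clustered genes, 3 genes known for polyadenylated mRNA, and of each partner list the genes with the largest change and a few known ones. The members and lists were chosen with earlier results of these data known.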

Additional observations from a re-analysis of the deposited data

Results flagged for a closer look

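The values of each histone gene and of the class sums were examined for a mouse that stands apart in its strain by Dixon's criterion at 4 values, in 34 sets of 4 mice, of which chance gives about 1.7. In 2 sets a mouse stood apart. H1f4 was at a log2 CPM of 1.27 in B6.SLE123 mouse 1 against a median of 0.78 in its strain, and its fall held without this mouse. H1f1 was at a log2 CPM of -0.095 in C57BL/6 mouse 1 against a median of -1.45, from 23 counts against 7 to 10 in the others, and this mouse set the direction of its fold change.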

How the results depend on the processing

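Under the other scalings, filter, block, tools and left-out mice, the 7 called histone genes were called wherever they were tested and the other 7 under none. The number called was 5 of the clustered and 2 of the variant genes except with at least 10 counts in every mouse (4 and 2, since Hist1h4m was not tested), where a more than 2-fold change was required (2 and 0) and where class was read from the symbol in the table, an alternative chosen after seeing the data (2 and 5). With each mouse left out the counts stayed at 5 and 2, the partner lists gave 9, 21 to 22 and 20 to 21 genes (processing, chaperones, S phase), and the class medians ranged from -0.37 to 0.10 (clustered) and from 0.08 to 0.21 (variant), so the clustered median has no firm direction. Left out in turn, mice gave log2 differences of -1.04 to -0.90 for the clustered sum, 0.03 to 0.08 for the variant sum and -1.07 to -0.97 for their ratio. With at least 10 counts in every mouse, 5 clustered and 3 variant genes remained, with medians of -0.74 and -0.047. The mean of log2 CPM in place of the sum gave -0.36, 0.16 and -0.52, and leaving out the gene with the most counts gave -0.38, -0.31 and -0.069. Left out singly, B6.SLE123 mouse 3 turned H1f0 from -0.03 to 0.076 (range -0.12 to 0.076) and C57BL/6 mouse 1 turned H1f1 from -0.19 to 0.36 (range -0.56 to 0.36). With the replicate number as a block, 5 clustered and 2 variant genes were called; same-numbered mice correlated by only -0.03 to 0.12 in their deviations, so the numbers do not pair them. Genes under about 20 counts, Hist1h4m included, are limited by depth.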
